A study of Mus musculus with 8 samples.

Results

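Ccn2 and Ccn3 are 2 of the 49868 named loci in a gene table from cultured mouse bone cells that were differentiated with or without the ability to make hyaluronan. Each is a single locus that carries exactly that name. They were chosen by name, with their FPKM differences between the genotypes already known, so their levels and fold changes are given as a description, with no test, and nothing is supported with them.

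CCN proteins are secreted matricellular proteins: they sit in the extracellular matrix and act on cells through integrins, proteoglycans and other receptors rather than as structural parts of the matrix. They share a modular build with an IGF-binding-like module, a von Willebrand factor type C module, a thrombospondin repeat and, in most members, a cystine-knot end. Ccn2 (connective tissue growth factor, Ctgf) is a textbook target of TGF-beta, of YAP and TAZ, and of serum and mechanical load, and mice need it for normal cartilage and bone growth. Ccn3 (nephroblastoma overexpressed, Nov) is known in cultured bone cells as a brake on osteoblast differentiation and has been described as a ligand-like partner of Notch1.

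The tested cells were mesenchymal stem cells (MSc) from the long bones of 4 Has-tKO mice, which carry constitutive knockouts of Has1 and Has3 and lose Has2 when 4-hydroxytamoxifen activates a Cre recombinase. They were set against MSc of 4 wildtype C57Bl6/J mice. Cells of both genotypes received 4-hydroxytamoxifen and were sampled on day 7 of osteogenic culture, 1 library per mouse. The labels state neither the Cre driver, the strain background of the Has-tKO mice nor any age, so genotype and background cannot be told apart. Per the labels, the authors checked the loss of Has2 in the cells by hyaluronan assay and PCR.

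Levels are FPKM as deposited, a read level normalized for transcript length and sequencing depth. The libraries summed to between 198221 and 259871 FPKM. The table gives no read counts, so depth is unknown and no counting error can be attached to a value. Of the targeted genes, Has1 and Has2 were not analysed here because no locus carries their names. Has3 lay between 0.150 and 0.663 FPKM in Has-tKO and between 0.236 and 0.466 FPKM in wildtype libraries, which overlap (exact permutation p = 0.371, two-sided, n = 4 each). The labels do not say which part of Has3 is deleted, so this level checks no label. Wildtype 1 stood apart, with 8327 named genes at 1 FPKM or more against 9679 to 10357 in the other libraries, and a median-ratio size factor of 0.684 against 0.990 to 1.11. Levels and fold changes of Ccn2 and Ccn3 are therefore also given after scaling by these factors. So are the calls of Ccn4 and the gene lists, and single genes where scaling bears on their call. Scaling took the median log2 fold change of all 9916 tested genes to 0.01, against 0.16 without scaling.

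Ccn2 was high in every Has-tKO library. It had 104, 76.5, 114 and 90.1 FPKM in Has-tKO 1 to 4, against 25.4, 48.2, 34.9 and 44.5 FPKM in wildtype 1 to 4. The groups did not overlap: the lowest Has-tKO library lay 1.59-fold above the highest wildtype library. Means were 96.3 ± 16.5 FPKM in Has-tKO and 38.3 ± 10.2 FPKM in wildtype (SD, n = 4 each), a 2.52-fold ratio of means. On the log2(FPKM + 1) scale the difference was 1.33 (SE 0.22). After scaling, Ccn2 averaged 89.2 ± 15.2 in Has-tKO and 40.0 ± 5.73 in wildtype, and the log2 fold change was 1.13 (SE 0.16). Scaling brought wildtype 1 to 37.1, inside the range of the other wildtype libraries.

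Ccn3 was lower than Ccn2 in level and in difference. It had 26.4, 33.0, 37.3 and 35.6 FPKM in Has-tKO 1 to 4, against 13.7, 18.8, 20.5 and 20.4 FPKM in wildtype 1 to 4. These groups did not overlap either, but the gap was narrower, with the lowest Has-tKO library 1.29-fold above the highest wildtype library. Means were 33.1 ± 4.80 FPKM in Has-tKO and 18.4 ± 3.22 FPKM in wildtype (SD, n = 4 each), a 1.80-fold ratio, and the log2 fold change was 0.82 (SE 0.18). After scaling the means were 30.7 ± 4.65 in Has-tKO and 19.4 ± 1.41 in wildtype, with a log2 fold change of 0.62 (SE 0.13). Scaled Ccn3 lay between 17.4 and 20.6 in the wildtype libraries, a coefficient of variation of 7.24%, against 15.2% in Has-tKO.

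Such a separation was common in these data. Of all tested genes, 12.0% had their 4 Has-tKO libraries all above the 4 wildtype libraries (7.18% after scaling) and 1.53% all below, so 2 of 2 members that do not overlap are read as no result. The limma model called 1.77% of tested genes at an adjusted p under 0.05, 1.58% higher and 0.192% lower in Has-tKO. After scaling it called 2.82%, 1.73% higher and 1.09% lower. The list counts given further on stand against these shares. By size, the log2 fold change of Ccn2 was number 45 from the top of the tested genes, and that of Ccn3 number 310 (56 and 367 after scaling).

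**Figure D1:**
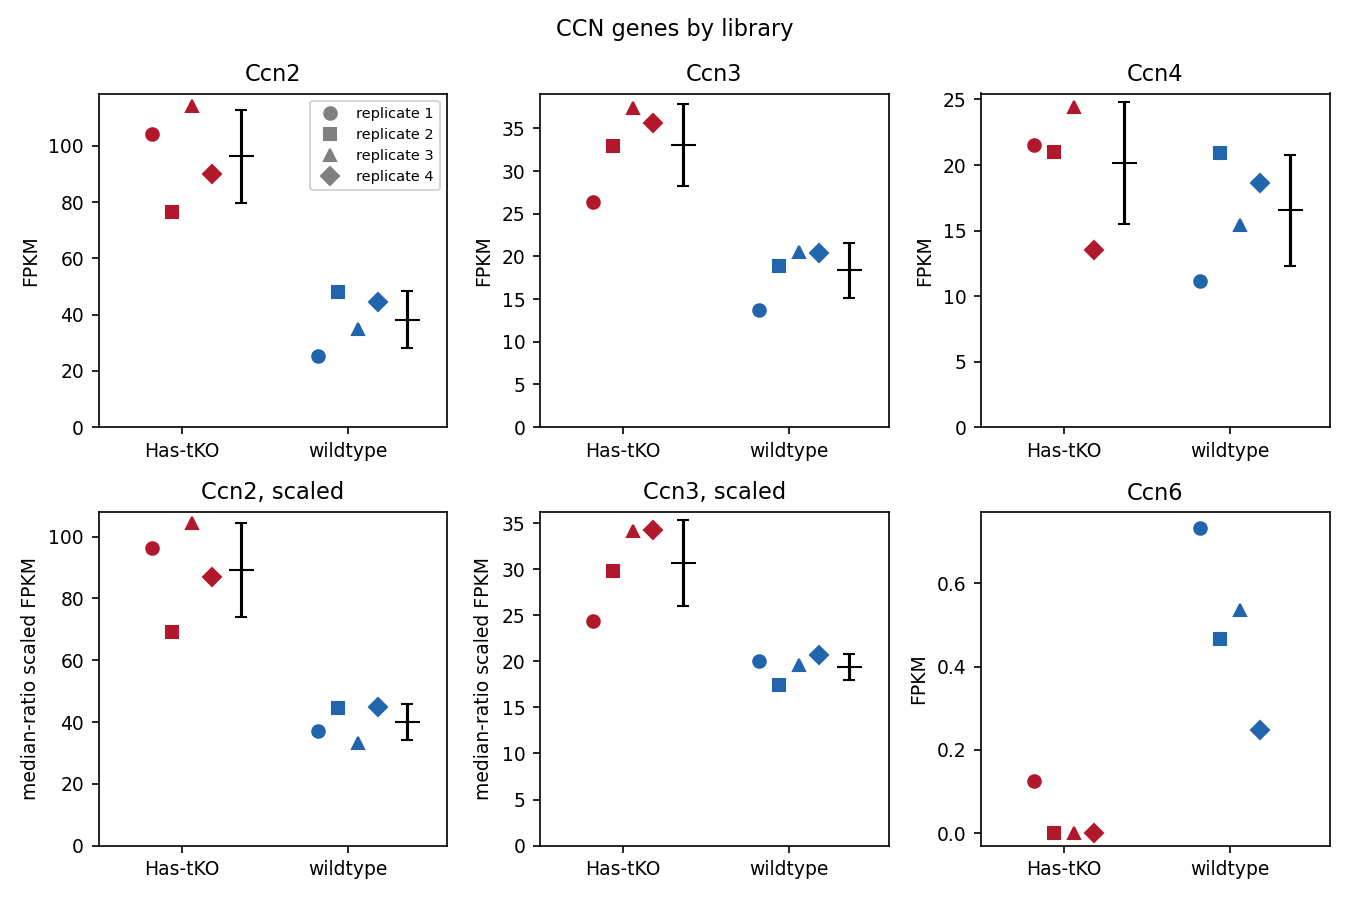
FPKM of the 4 CCN genes named in the table, with Has-tKO libraries (red) left of wildtype libraries (blue) and 1 symbol per replicate number; the lower left and middle panels show Ccn2 and Ccn3 after median-ratio scaling. Black bars are mean ± SD (n = 4), left out for Ccn6, which is listed at 0 in 3 libraries. Ccn2 and Ccn3 do not overlap between the genotypes before or after scaling, whereas Ccn4 does.

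The members did not rank the libraries alike. Without scaling both were highest, among Has-tKO libraries, in Has-tKO 3, but Has-tKO 1 held the second highest Ccn2 (104 FPKM) and the lowest Ccn3 (26.4 FPKM). Among wildtype libraries unscaled Ccn2 was highest in wildtype 2 and Ccn3 in wildtype 3, and both were lowest in wildtype 1. After scaling both were highest, among wildtype libraries, in wildtype 4 (45.0 and 20.6). Scaled Ccn2 was lowest in wildtype 3 (33.3) and scaled Ccn3 in wildtype 2 (17.4). Among Has-tKO libraries scaled Ccn2 stayed highest in Has-tKO 3, while scaled Ccn3 was highest in Has-tKO 4 (34.3, against 34.1 in Has-tKO 3). The ratio of Ccn2 to Ccn3, both per length, was 3.95, 2.32, 3.06 and 2.53 in Has-tKO 1 to 4 and 1.86, 2.56, 1.70 and 2.18 in wildtype 1 to 4. It averaged 2.97 ± 0.73 in Has-tKO and 2.07 ± 0.38 in wildtype, and the groups overlapped: wildtype 2 lay above Has-tKO 2 and Has-tKO 4. With each gene centred on its own mean, the profiles of the members over the 8 libraries differed by a root mean square of 0.36 (log2), against a median of 0.66 between Ccn2 and all tested genes. By this distance Ccn3 was number 91 among 9914 genes in likeness to Ccn2, and Ccn2 number 2805 in likeness to Ccn3. This distance includes the differences between the genotypes, which were known when the members were chosen. Within genotypes the distance between them was 0.26, against medians over all tested genes of 0.28 from Ccn2 and 0.24 from Ccn3. By the distance within genotypes Ccn3 was number 3664 in likeness to Ccn2, and Ccn2 number 5504 in likeness to Ccn3.

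No single library decided the size of either difference. With 1 library left out the log2 fold change of Ccn2 ran between 1.16 (without wildtype 1) and 1.46 (without wildtype 2). That of Ccn3 ran between 0.69 (without wildtype 1) and 0.92 (without Has-tKO 1). Without both wildtype 1 and Has-tKO 4, the libraries with the largest share of FPKM on unnamed loci, the values were 1.18 for Ccn2 and 0.65 for Ccn3. That share was 61.5% in wildtype 1 and 56.4% in Has-tKO 4, against 45.4% to 48.7% in the other libraries.

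**Figure D2:**
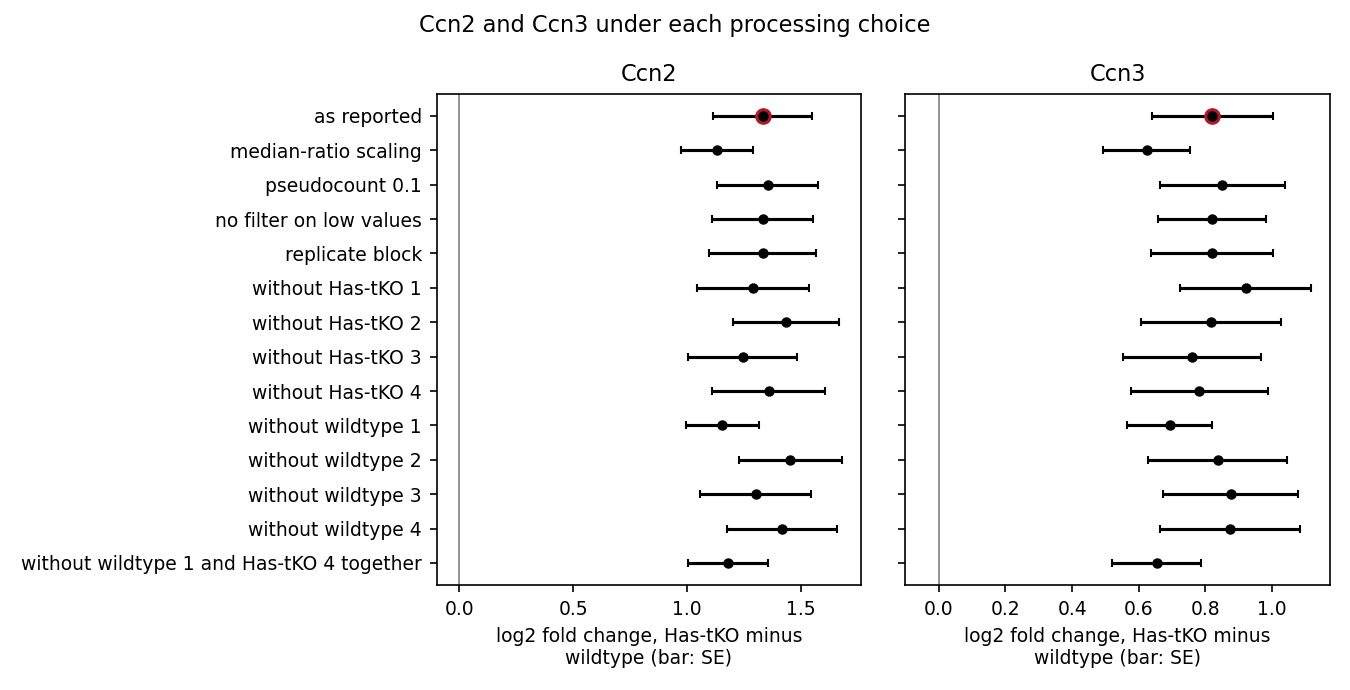
Log2 fold change of Ccn2 (left) and Ccn3 (right), as the Has-tKO mean of log2(FPKM + 1) less the wildtype mean, as reported (red ring) and under each other processing choice; bars are SE. All values stay above 0, and the lowest are those after scaling or without wildtype 1.

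Of the other CCN genes, Ccn4 and Ccn6 could be followed, while Ccn1 and Ccn5 were not analysed here because no locus carries their names. Ccn4 (Wisp1), a Wnt-induced member made by osteoblast lineage cells, had 21.6, 21.0, 24.4 and 13.5 FPKM in Has-tKO 1 to 4, against 11.1, 20.9, 15.4 and 18.7 FPKM in wildtype 1 to 4. These ranges overlap, and the difference did not pass (log2 fold change 0.27, SE 0.23, limma adjusted p = 0.568; after scaling 0.08, SE 0.17, adjusted p = 0.841). In wildtype cells Ccn4 and Ccn3 stood at much the same level per length, 16.5 ± 4.24 and 18.4 ± 3.22 FPKM, and their ranges overlapped, below Ccn2. In Has-tKO cells the order was Ccn2, Ccn3 and Ccn4, and no library's values crossed between these ranks.

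Ccn6 (Wisp3), a member known from human cartilage disease, went the other way at very low level. It was listed at 0.126, 0, 0 and 0 FPKM in Has-tKO 1 to 4, against 0.733, 0.467, 0.536 and 0.249 FPKM in wildtype 1 to 4. All 4 Has-tKO libraries lay below all 4 wildtype libraries (exact permutation p = 0.0286, two-sided, n = 4 each, the smallest p this design allows). Of 10488 named loci under the level filter with a value above 0 in at least 4 libraries, 1.15% showed that same separation. Ccn6 was left out of the model because it never reached 1 FPKM, and a listed 0 can be a failed estimate, so no fold is given.

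By position, both members lie next to a gene of the ectonucleotide pyrophosphatase/phosphodiesterase family in the RefSeq annotation of GRCm38.p6, used here for gene order only: Ccn2 beside Enpp1 on chromosome 10 and Ccn3 beside Enpp2 on chromosome 15. Enpp1, which makes the mineralization inhibitor pyrophosphate, had 11.8 ± 5.06 FPKM in Has-tKO and 8.36 ± 3.47 FPKM in wildtype and did not pass (log2 fold change 0.48, SE 0.33, limma adjusted p = 0.482). Enpp2 was not analysed here. The neighbours on the other side were low, with Moxd1 (beside Ccn2) at 0.409 ± 0.290 FPKM in Has-tKO and 0.735 ± 0.381 FPKM in wildtype, and Mal2 (beside Ccn3) at 0 in all Has-tKO and at most 0.0287 FPKM in wildtype libraries. Of these neighbours Enpp1 was the one high enough to test.

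Receptors and partners of CCN proteins mostly did not pass. Of 18 tested genes (25 in the list), 1 rose and none fell, and the median log2 fold change was 0.35, against 0.16 over all tested genes. After scaling 2 rose and 1 fell (median 0.20, against 0.01). With 1 library left out, 0 to 3 rose and 0 to 2 fell, the 2 that fell without wildtype 1. The one that rose, Itgb2, is the beta chain of leukocyte integrins, with 72.7, 60.4, 57.6 and 73.3 FPKM in Has-tKO 1 to 4 against 19.8, 36.9, 45.7 and 28.3 FPKM in wildtype 1 to 4 (log2 fold change 1.05, SE 0.23, limma adjusted p = 0.0471). Its call held in 2 of 8 fits that each left out 1 library, being lost without any Has-tKO library, wildtype 2 or wildtype 4 (limma adjusted p 0.0736 to 0.176) and also with a pseudocount of 0.1 (adjusted p = 0.0618) and without the filter on low values (adjusted p = 0.230). Notch1, the receptor tied to Ccn3, had 14.4, 11.7, 9.69 and 10.7 FPKM in Has-tKO 1 to 4 against 3.54, 7.67, 7.64 and 5.77 FPKM in wildtype 1 to 4. Its groups did not overlap, and among the settings run it passed after scaling and without wildtype 1 (log2 fold change 0.85, limma adjusted p = 0.0718; scaled 0.68, adjusted p = 0.0432; without wildtype 1, 0.65, adjusted p = 0.0483). The broad endocytic CCN2 receptor Lrp1 had 227 FPKM in Has-tKO and 184 FPKM in wildtype on average and did not pass (log2 fold change 0.34, adjusted p = 0.423). The Wnt co-receptor Lrp6, which CCN2 can bind, fell after scaling (log2 fold change -0.51, adjusted p = 0.0352) but not without it (-0.32, adjusted p = 0.423). Connexin 43 (Gja1), a partner of CCN3, had a log2 fold change of -0.00 (adjusted p = 0.993; after scaling -0.19, adjusted p = 0.601).

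YAP and TAZ are the transcriptional co-activators that drive Ccn2 through TEAD factors when cells spread or are stretched. None of 14 tested genes of this machinery passed, with or without scaling, and their median log2 fold change was 0.15, close to that of all tested genes. Yap1 had 11.8 FPKM in Has-tKO and 12.3 FPKM in wildtype on average (log2 fold change -0.03, limma adjusted p = 0.942). Wwtr1, the gene of TAZ, had 14.4 FPKM in Has-tKO and 13.6 FPKM in wildtype on average (log2 fold change 0.13, adjusted p = 0.817). Of 14 tested YAP and TAZ targets other than Ccn2, 1 rose and none fell (median log2 fold change 0.30). After scaling none rose and 1 fell (median 0.13), and 0 to 2 rose with 1 library left out.

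That gene was Igfbp3, an IGF-binding protein, with 8.96, 9.01, 8.21 and 9.47 FPKM in Has-tKO 1 to 4 against 4.63, 3.39, 3.61 and 4.77 FPKM in wildtype 1 to 4 (log2 fold change 0.97, SE 0.15, limma adjusted p = 0.0152). It did not pass after scaling (0.79, adjusted p = 0.0611), without Has-tKO 1 (adjusted p = 0.0751) or without wildtype 4 (adjusted p = 0.0550). The angiomotin relative Amotl2, a widely used readout of YAP activity, had 30.5 FPKM in Has-tKO and 27.3 FPKM in wildtype on average (log2 fold change 0.17, adjusted p = 0.646). Ankrd1, another such readout, was at most 0.291 FPKM in any library and not tested. The target Tgfb2 lay lower in all Has-tKO libraries, 5.45 ± 1.74 FPKM against 10.2 ± 2.42 FPKM in wildtype, and fell after scaling (log2 fold change -0.997, adjusted p = 0.0339) and without wildtype 1 and Has-tKO 4 together (-0.75, adjusted p = 0.0498), but not in the unscaled fit of all libraries (-0.82, adjusted p = 0.0896). Ccn2 thus had the highest log2 fold change of the 15 tested genes of its list, a place that its selection fixes in part.

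MRTF and SRF form the other actin-sensing route to Ccn2. Of 16 tested targets 2 rose and none fell (3 after scaling), and the median log2 fold change was 0.44 (0.32 after scaling). With 1 library left out, 0 (without wildtype 4) to 3 rose. Tagln, an actin-binding protein of contractile cells, had 25.4, 27.2, 41.3 and 34.2 FPKM in Has-tKO 1 to 4 against 14.0, 14.5, 10.2 and 12.2 FPKM in wildtype 1 to 4 (log2 fold change 1.25, SE 0.19, limma adjusted p = 0.0136). It passed in each fit without 1 library other than that without wildtype 4 (adjusted p = 0.0596). Actg2, an enteric smooth muscle actin, averaged 5.97 ± 2.80 FPKM in Has-tKO and 1.52 ± 0.70 FPKM in wildtype (log2 fold change 1.44, SE 0.29, adjusted p = 0.0333), and was lost without Has-tKO 1 (adjusted p = 0.128), Has-tKO 2 (0.0669), Has-tKO 3 (0.0613) or wildtype 4 (0.0921). Acta2, the smooth muscle actin of myofibroblasts, had 167 ± 46.5 FPKM in Has-tKO and 91.3 ± 31.4 FPKM in wildtype and did not pass (0.90, adjusted p = 0.118). The focal adhesion protein Zyx passed after scaling (0.49, adjusted p = 0.0292), without wildtype 1 (0.53, adjusted p = 0.0238) and without wildtype 1 and Has-tKO 4 together (0.55, adjusted p = 0.0229), but not in the unscaled fit of all libraries (0.67, adjusted p = 0.0648).

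TGF-beta is the classical inducer of Ccn2. None of 18 tested ligands, receptors and Smads passed in the unscaled fit of all libraries, and after scaling 1 fell, Tgfb2. The median log2 fold change was 0.22 (0.05 after scaling). Tgfb1 had 15.9, 13.6, 16.6 and 19.6 FPKM in Has-tKO 1 to 4 against 9.54, 10.5, 13.5 and 11.3 FPKM in wildtype 1 to 4, groups that separate by a narrow margin (log2 fold change 0.51, limma adjusted p = 0.147). The receptors Tgfbr1 (0.74, adjusted p = 0.111) and Tgfbr2 (0.59, adjusted p = 0.116) did not pass. Skil, a feedback repressor of Smads, did not pass (0.76, adjusted p = 0.0824). Smad7, the inhibitory Smad that TGF-beta induces, had 6.53 FPKM in Has-tKO and 4.55 FPKM in wildtype on average (0.44, adjusted p = 0.146).

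Of 14 tested TGF-beta targets other than Ccn2, 3 rose and none fell, with a median log2 fold change of 0.60. They were Tagln and the basement membrane collagens Col4a1 (17.0 ± 2.14 FPKM in Has-tKO, 9.45 ± 0.56 FPKM in wildtype, log2 fold change 0.78, limma adjusted p = 0.0268) and Col4a2 (21.4 ± 2.79 FPKM in Has-tKO, 12.6 ± 0.43 FPKM in wildtype, 0.71, adjusted p = 0.0395). Both collagen calls were lost after scaling (adjusted p = 0.0989 and 0.138). Both were also lost without any Has-tKO library, wildtype 2 or wildtype 4 (adjusted p 0.0571 to 0.130 for Col4a1 and 0.0700 to 0.161 for Col4a2). After scaling 1 target rose, Tagln, and 1 fell, Tgfbi (median 0.43). Tgfbi had 26.4 ± 2.99 FPKM in Has-tKO and 44.7 ± 14.1 FPKM in wildtype (scaled log2 fold change -0.87, limma adjusted p = 0.0198). In the unscaled fit of all libraries Tgfbi did not pass (-0.68, adjusted p = 0.177). With 1 library left out 0 (without wildtype 4) to 3 targets rose and 0 to 1 fell.

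**Figure D3:**
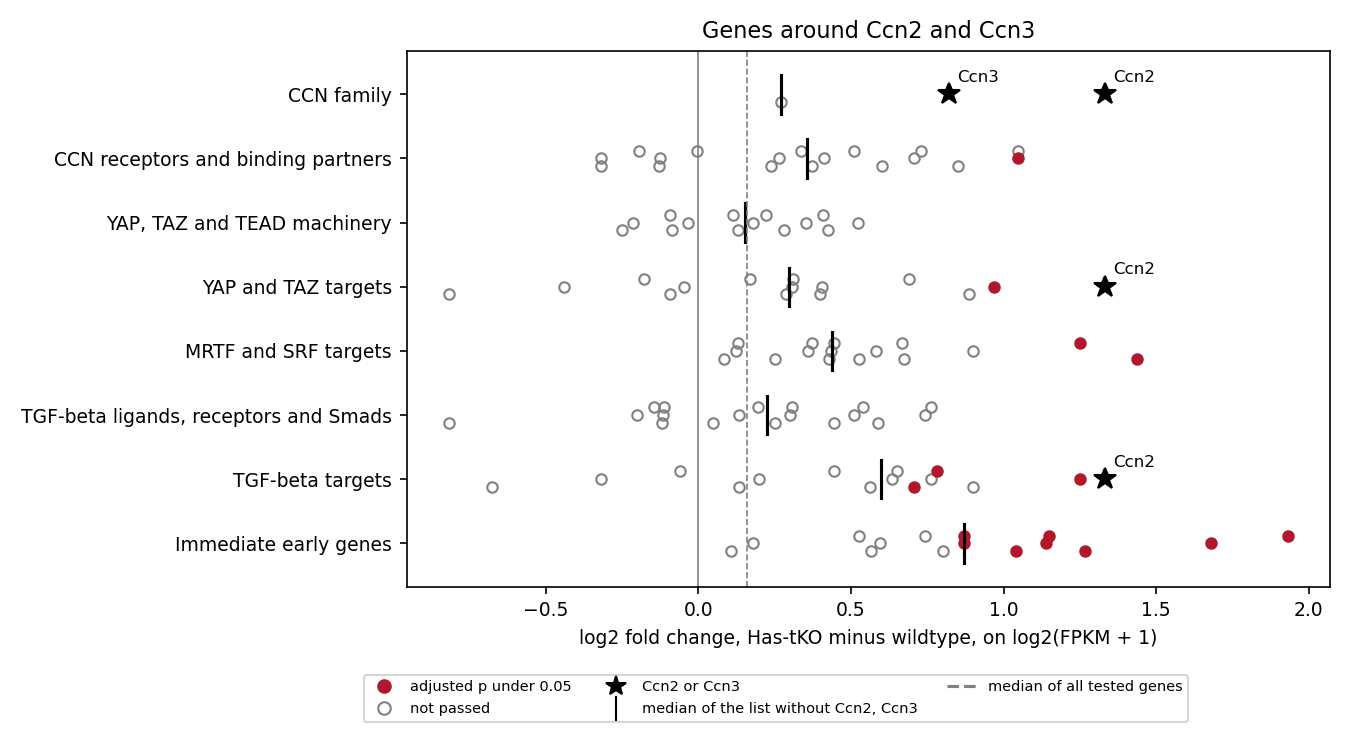
Log2 fold change of every tested member of the 8 gene lists around the CCN genes, as the Has-tKO mean of log2(FPKM + 1) less the wildtype mean. Filled red points passed at an adjusted p under 0.05, open points did not, black stars are Ccn2 and Ccn3, short black bars mark the median of a list without these genes, and the dashed line is the median of all tested genes, 0.16. The immediate early genes hold 8 of the passing points, and the YAP and TAZ machinery and the TGF-beta components hold none.

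Ccn2 is also an immediate early gene, switched on within minutes of serum without new protein being made. This pathway list had the most members that rose, a place fixed in part because the lists were chosen with earlier results known. Of 15 tested members 8 rose and none fell (7 after scaling), with a median log2 fold change of 0.87 (0.68 after scaling). Scaling lost the calls of Fosl1 and Dusp1 and gained that of Jun. Without scaling 7 did not pass, among them Fos (log2 fold change 0.60, limma adjusted p = 0.143) and Myc (0.18, adjusted p = 0.595). The zinc finger factors Egr1 (8.07 ± 0.82 FPKM in Has-tKO, 1.93 ± 0.87 FPKM in wildtype, log2 fold change 1.68, limma adjusted p = 0.00633) and Egr2 (1.93, adjusted p = 0.00226) passed in each of the 8 fits that left out 1 library. Egr3 (1.14, adjusted p = 0.0127) and the AP-1 subunit Junb (1.27, adjusted p = 0.0111) lost their calls without Has-tKO 1 (adjusted p = 0.0648 and 0.0647) and without wildtype 4 (0.0588 and 0.0550). Egr2 averaged 6.18 FPKM in Has-tKO and 0.822 FPKM in wildtype, and Egr3 2.39 FPKM in Has-tKO and 0.551 FPKM in wildtype. Both stayed under 1 FPKM in every wildtype library and reached the level filter through their Has-tKO libraries alone. Their calls, and their part in the count of 8, are therefore partly built in. The count ran between 2 (without Has-tKO 1, or without wildtype 4) and 10 (without wildtype 1). Over all genes the count was 12 without Has-tKO 1 and 10 without wildtype 4, against 176 with all libraries and 349 without wildtype 1.

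The profiles most like those of the members were named by the smallest root mean square difference of centred log2 values over the 8 libraries. This is a description, because a gene near Ccn2 or Ccn3 must separate the genotypes as they do. Nearest to Ccn2 were Arc, an immediate early gene best known from neurons (0.21), Cx3cl1, the membrane-bound chemokine fractalkine (0.21), the NF-kappaB subunits Nfkb2 (0.22) and Relb (0.23), and Ass1, an enzyme of arginine synthesis (0.24). Nearest to Ccn3 were Ifngr2, a chain of the interferon-gamma receptor (0.10), Hes1, a Notch target (0.11), Baiap2, an adaptor of the actin cytoskeleton (0.14), Abcb1b, a drug efflux pump (0.16), and Zyx (0.16). The medians over all tested genes were 0.66 from Ccn2 and 0.42 from Ccn3.

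Hes1 had 1.11, 1.42, 1.86 and 1.19 FPKM in Has-tKO 1 to 4 and 0, 0.356, 0.494 and 0.388 FPKM in wildtype 1 to 4, so that, as for unscaled Ccn3, Has-tKO 3 was highest and wildtype 1 lowest. At these levels the pseudocount compresses its log2 profile, and Hes1, like Arc, reached the level filter through its Has-tKO libraries alone. Ifngr2 had 14.2, 16.3, 18.1 and 16.0 FPKM in Has-tKO 1 to 4 against 5.998, 10.0, 11.4 and 10.3 FPKM in wildtype 1 to 4. In all 10 of these profiles wildtype 1 was the lowest library, the one whose size factor was also lowest.

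**Figure D4:**
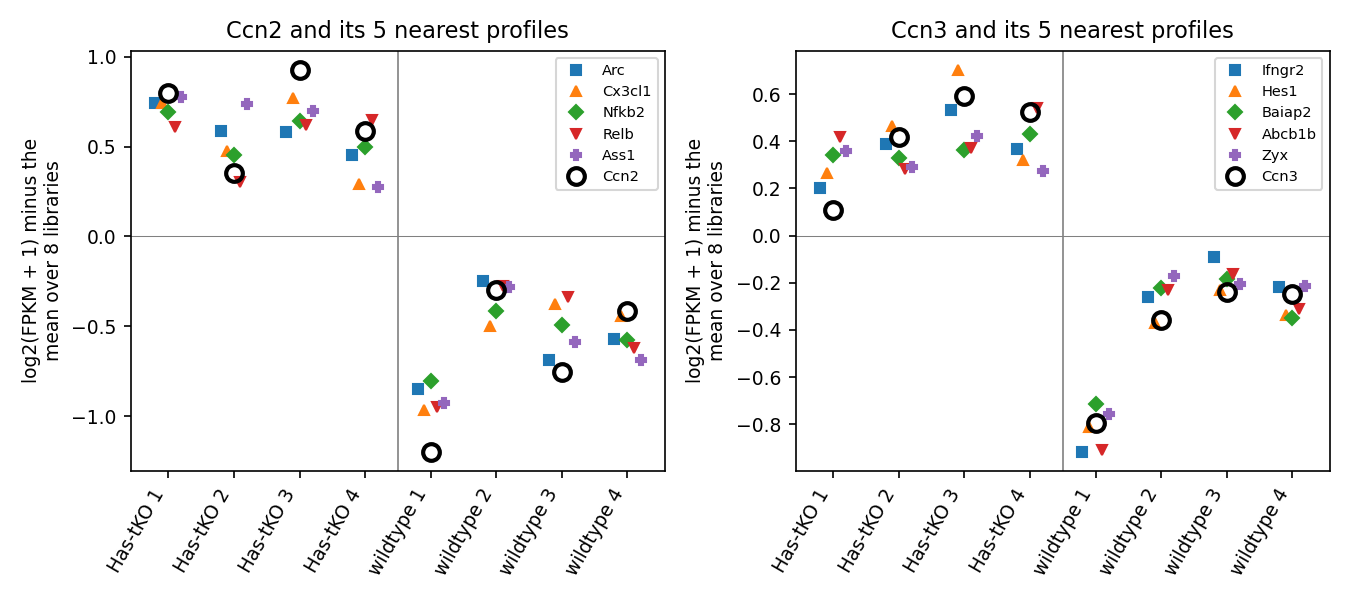
Centred log2(FPKM + 1) of Ccn2 (left panel, open circles) and Ccn3 (right panel, open circles) with the 5 genes nearest to each, per library, Has-tKO left of the vertical line and wildtype right of it. Every gene is above 0 in the Has-tKO libraries and below 0 in the wildtype libraries, with wildtype 1 lowest.

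Markers of the cell types that such cultures can hold were summed per library, and in bulk RNA fewer cells of a type and less RNA per cell cannot be told apart. The labelled stromal and osteoblast identity was present: of 18 markers 10 are named in the table and 9 reached 1 FPKM in at least 4 libraries, and none of the 9 passed without scaling. The stromal receptor Pdgfra had 18.6 FPKM in Has-tKO and 17.8 FPKM in wildtype on average. The mineralization enzyme Alpl (67.4 ± 12.8 FPKM in Has-tKO, 121 ± 29.3 FPKM in wildtype) and the bone matrix protein Ibsp (147 ± 22.6 FPKM in Has-tKO, 296 ± 97.9 FPKM in wildtype) did not pass without scaling (limma adjusted p = 0.0826 and 0.0718) and fell after it (log2 fold change -1.02, adjusted p = 0.0154, and -1.16, adjusted p = 0.0177). Both also fell without wildtype 1 (adjusted p = 0.0173 and 0.0104). The stromal and osteoblast sum was 534 to 643 FPKM in Has-tKO and 461 to 913 FPKM in wildtype, and these ranges overlapped (exact permutation p = 0.143, two-sided). After scaling all Has-tKO libraries lay below all wildtype libraries (494 to 581 in Has-tKO and 673 to 859 in wildtype, exact permutation p = 0.0286). Over the 5 marker lists the adjusted values were 0.238 and, after scaling, 0.0714.

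Macrophage and myeloid markers were abundant in both genotypes. Of 18 markers 15 are named in the table, 14 reached 1 FPKM in at least 4 libraries, and none of the 15 was at 0 in all libraries. Their sum was 606 to 993 FPKM in Has-tKO and 370 to 629 FPKM in wildtype (exact permutation p = 0.0571, two-sided; adjusted over 5 lists 0.143; after scaling 554 to 939 in Has-tKO and 361 to 601 in wildtype, p = 0.0857), led by the complement gene C1qb. Of 14 tested markers 3 rose (Cx3cr1, Spi1 and Cd52) and none fell, and 1 rose after scaling; each passed in at most 3 of the 8 fits without 1 library. Without scaling the myeloid sum ran from high to low as Has-tKO 1, 4, 2, 3 and as wildtype 3, 2, 1, 4. Unscaled Ccn2 ran from high to low as Has-tKO 3, 1, 4, 2 and as wildtype 2, 4, 3, 1. For unscaled Ccn3 the order was Has-tKO 3, 4, 2, 1 and wildtype 3, 4, 2, 1. The part of myeloid cells in the levels of Ccn2 and Ccn3 was not tested.

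The sum of smooth muscle and pericyte markers was higher in all Has-tKO libraries, 169 to 296 FPKM against 79.3 to 165 FPKM in wildtype. Its exact permutation p was 0.0286 (two-sided), or 0.143 adjusted over 5 lists. After scaling the sum was 156 to 271 in Has-tKO and 112 to 152 in wildtype (exact permutation p = 0.0286, adjusted 0.0714). Acta2 held 73.3% of that sum, and 1 of 6 tested markers, Tagln, rose. The pericyte marker Rgs5 averaged 1.45 FPKM in Has-tKO and 2.26 FPKM in wildtype (log2 fold change -0.40, limma adjusted p = 0.513). Cspg4 averaged 15.4 FPKM in Has-tKO and 15.3 FPKM in wildtype (0.03, adjusted p = 0.962). Cnn1 (0.43, adjusted p = 0.401) and Des (0.10, adjusted p = 0.815) overlapped between the genotypes as well. The late smooth muscle markers Myh11 (at most 0.353 FPKM) and Myocd (at most 0.109 FPKM) were near 0 in every library. Without scaling the smooth muscle and pericyte sum ran from high to low as Has-tKO 3, 2, 4, 1 and as wildtype 2, 4, 3, 1. The part of such cells in the levels of Ccn2 and Ccn3 was not tested. Chondrocyte markers, a cell type rich in Ccn2, had a sum of 146 to 219 FPKM in Has-tKO and 156 to 284 FPKM in wildtype (exact permutation p = 0.286, two-sided; after scaling p = 0.257), of which Col2a1 held 84.9%. Of 6 tested chondrocyte markers 2 fell, Col9a1 and Col10a1, which passed in 1 and 3 of the 8 fits without 1 library. After scaling 3 fell, the third being the cartilage regulator Sox9 (7.11 ± 1.04 FPKM in Has-tKO, 13.3 ± 3.98 FPKM in wildtype, scaled log2 fold change -0.96, adjusted p = 0.0118; unscaled -0.78, adjusted p = 0.0966). Endothelial markers, another Ccn2-rich type, summed to 5.62 to 6.79 FPKM in Has-tKO and 5.67 to 7.20 FPKM in wildtype (exact permutation p = 0.8, two-sided; after scaling p = 0.314). Egfl7 held 74.3% of that sum and was the 1 endothelial marker high enough to test. It averaged 4.40 FPKM in Has-tKO and 5.06 FPKM in wildtype and did not pass (log2 fold change -0.16, limma adjusted p = 0.616). Erg reached at most 1.28 FPKM. The defining endothelial genes Pecam1, Cdh5, Kdr, Tek, Tie1 and Emcn each stayed at or below 0.444 FPKM in every library.

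**Figure D5:**
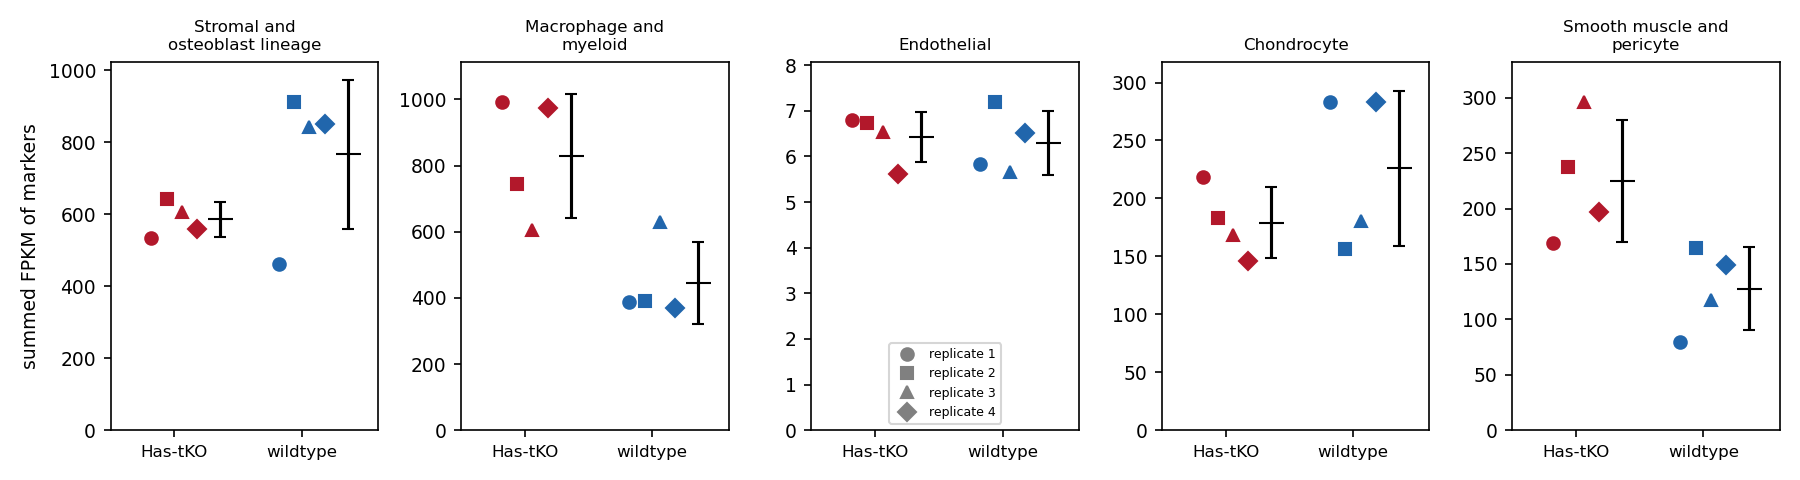
Summed FPKM of the named markers of 5 cell types per library, Has-tKO (red) left of wildtype (blue), 1 symbol per replicate number, with mean ± SD in black (n = 4). Only the smooth muscle and pericyte sum separates the genotypes without scaling, and the endothelial sum stays below 8 FPKM.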

How the data were processed

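RNA sequencing libraries of 4 Has-tKO and 4 wildtype mice were used. The deposited values are FPKM per locus, made by the authors; their processing notes list HISAT2, StringTie, fastp, bcl2fastq and DESeq2 and the builds GRCm39 and hg38, without versions or roles. Per the labels' protocols, ribosomal RNA was depleted and libraries were made by tagmentation, which keeps no strand, so antisense reads cannot be told apart. Ratios of low values between libraries did not pile up (at most 2.04% in 1 bin), and no whole reads were recovered.

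From the deposited FPKM, log2(FPKM + 1) was taken. The 9916 named loci that reached 1 FPKM in 4 or more libraries were fitted with limma 3.58.1 in R 4.3.3 (empirical Bayes with an intensity trend, two-sided, Benjamini-Hochberg adjustment over all tested genes, threshold 0.05). Where a name stood on several loci, the one with the highest mean was used. Median-ratio size factors came from 7435 loci with at least 1 FPKM in all libraries. The code was tested on simulated data. Exact permutation tests used SciPy 1.17.1. Fits without 1 library kept the same genes.

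Members and gene lists were chosen with earlier results of these data known. Named are the CCN genes, up to 4 tested genes of smallest p per list, and the 5 nearest profiles per member. Outside this rule, Lrp1, Lrp6, Gja1, Yap1, Wwtr1, Amotl2, Ankrd1, Tgfb1, Smad7, Fos and Myc were chosen for their role. So were the marker genes, and the chromosome neighbours for their position. Tgfbi was chosen for its call after scaling, and Jun, Fosl1 and Dusp1 for calls that changed with scaling. Alternatives were scaling, a pseudocount of 0.1, no filter on low values, the replicate number as a block, and left-out libraries.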

Additional observations from a re-analysis of the deposited data

Results flagged for a closer look

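In 53 genes and 106 groups of 4 libraries, 5 single values lay far from the other 3 of their genotype, and chance gives about 1 in 20 groups. None was a value of Ccn2 or Ccn3. Ccn6 was listed at 0.126 FPKM in Has-tKO 1 and at 0 in the other 3 Has-tKO libraries. Zyx, near to Ccn3 in profile, was low in wildtype 1 (5.95 FPKM), and Relb, near to Ccn2, was low in Has-tKO 2 (11.5 FPKM). Junb was high in wildtype 3 (19.1 FPKM), and the Hippo kinase Stk4 was high in Has-tKO 1 (6.34 FPKM).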

How the results depend on the processing

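The log2 fold changes of Ccn2 and Ccn3 stayed above 0 and within 1 replicate SD (0.34 and 0.24, log2) of the reported values under every alternative run. The range over fits without 1 library was 1.16 to 1.46 for Ccn2 and 0.69 to 0.92 for Ccn3. With a pseudocount of 0.1 they were 1.36 and 0.85. The number of changed genes was less steady. It was 176 (157 higher and 19 lower), against 280 after scaling (172 higher and 108 lower, 147 shared), 111 with a pseudocount of 0.1, 2 without the filter on low values (27220 genes tested, 2535 at an unadjusted p under 0.05), 358 without wildtype 1 and Has-tKO 4 together, and 10 to 349 without 1 library. Of 650 values for 50 other named genes, 490 kept their side of the threshold, 125 lost it, 35 gained it and none turned round. The replicate block left 147 changed genes (123 shared), without Itgb2 (adjusted p = 0.0560), Col4a1 (0.0651), Col4a2 (0.0904), Col9a1 (0.0670), Spi1 (0.0535), Cd52 (0.0560) and Baiap2 (0.0808), and with Alpl (0.0489) and Ibsp (0.0342). Deviations of same-numbered libraries from their genotype means had correlations of -0.08, 0.31, -0.12 and -0.06 for numbers 1 to 4. Differently numbered libraries ran between -0.34 and 0.34. The labels tie equal numbers to no litter, day or batch, and so few correlations cannot settle whether the numbers pair libraries. Unknown depth gives low genes such as Ccn6 no counting error.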
